A study of Homo sapiens with 27 samples.

Results

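The genes described here are 42 interferon-stimulated genes, chosen by a list of gene symbols. All 42 are among the 23228 genes in the authors' deposited table, and 40 of them had enough reads to be tested in the line ARCaPM-DR, 31 in DU145-DR and 31 in 22Rv1-DR. They were followed through 3 questions: how their levels differ between the lines, how they change when the transcription factor GATA2 is knocked down, and whether the 2 hairpins used for the knockdown act alike on them.

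Interferons are secreted proteins that cells release when they sense viral or other foreign nucleic acid. They bind receptors on the same or neighbouring cells and activate the kinases JAK1 and TYK2. These kinases phosphorylate STAT proteins, which join IRF9 to form a complex that binds the interferon-stimulated response element (ISRE) in the promoters of interferon-stimulated genes. The products of these genes sense viral RNA, degrade it, block its translation, restrict entry and budding at membranes, modify proteins with ISG15 and raise antigen processing. Tumour cell lines differ widely in how strongly they express the set without added interferon.

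DU145-DR, 22Rv1-DR and ARCaPM-DR are human prostate cancer cell lines whose names point to the established lines DU145, 22Rv1 and ARCaPM. The labels give all 3 as Ch-CRPC, and the series title as castration-resistant prostate cancer. Each carried a random control short hairpin RNA (shRNA), shGATA2a or shGATA2b, the last pair directed at GATA2, and each of these 9 groups had 3 libraries of total RNA, 27 in all. No interferon or other treatment is named for any group, and the comparison is therefore of hairpins only. The labels do not say whether replicates are separate cultures, so a p-value measures the spread between these libraries, which may be technical, and lines are not replicates of each other. Values are normalised reads, the reads of a gene divided by 1 factor per library, and are compared within a gene only.

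The libraries held 3.44 to 19.4 M reads, with a median of 12.87 M, and the shallowest was shGATA2a replicate 3 of ARCaPM-DR. GATA2 itself, the target, was lower in every hairpin library than in any control of its line. It ranged from 925 to 1255 normalised reads in DU145-DR controls against 225 to 385 with a hairpin, from 3052 to 4307 against 806 to 1738 in 22Rv1-DR, and from 145 to 173 against 17.3 to 46.6 in ARCaPM-DR. Of its 9 values per line, 5 in DU145-DR and 7 in 22Rv1-DR were not whole numbers of reads. Summed over 7 luminal and androgen receptor genes, 22Rv1-DR controls had 13292 to 21804 normalised reads, against 284 to 346 in DU145-DR and 471 to 596 in ARCaPM-DR, so the prostate luminal markers were low in the last 2 of these lines. Of 9 blood cell genes, 3 to 6 were at 0 in all libraries of a group and the sum never passed 26.1.

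Some libraries stood apart for these genes. In ARCaPM-DR the replicate 2 library was the lowest of its group for 29 of 40 tested members in the controls, 32 with shGATA2a and 30 with shGATA2b. In 22Rv1-DR, control replicate 3 had 2098 normalised reads of ISG15 against 631 and 836 in the other controls, and 3.26 of IFITM1 against 39.6 and 51.6. The counts of members called in each ARCaPM-DR comparison, and the fold changes of members named in 22Rv1-DR, are given with and without these libraries. Counts by role and of groups that do not overlap, and counts and fold changes of other pathway genes, are given with all libraries only.

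The ISRE is the sequence feature the members are best known for, and it was looked for in their promoters. RefSeq promoter windows on GRCh38.p14, which reach from 250 bases before to 50 bases after the gene start, were matched for 34 members by symbol or older symbol. The ISRE core, spelled here as GAAA, any 2 bases and GAAA again, on either strand, was present in 21 of the 34 windows, or 61.8%, against 3.57% of all 35116 windows in the table. A gamma-activated sequence, TTCNNNGAA, was present in 7 of 34, or 20.6%, against 7.66%. The GATA motif, in the spelling AGATAA only, was present in 4 of 34, or 11.8%, against 10.3%. A match describes letters in a window and not a bound site, and TTCNNNGAA can overlap the ISRE core.

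The 250 bases before the start are printed for the 4 members with the largest rise in ARCaPM-DR, and for the 2 that fell there, which were chosen after their values were seen. Each is written 5′ to 3′ on the gene's strand with every ISRE core in capitals. They lie at chr1:78620198-78620447 on the plus strand (IFI44L), chr1:89065209-89065458 on the minus strand (GBP1), chr7:93117980-93118229 on the minus strand (SAMD9), chr1:27672193-27672442 on the minus strand (IFI6), chr15:88638766-88639015 on the plus strand (ISG20) and chr1:1013247-1013496 on the plus strand (ISG15).
IFI44L: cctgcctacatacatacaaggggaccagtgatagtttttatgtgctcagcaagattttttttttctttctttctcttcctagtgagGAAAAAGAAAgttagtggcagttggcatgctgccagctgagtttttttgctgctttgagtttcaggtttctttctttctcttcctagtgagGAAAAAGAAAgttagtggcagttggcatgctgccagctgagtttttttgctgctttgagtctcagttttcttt
GBP1: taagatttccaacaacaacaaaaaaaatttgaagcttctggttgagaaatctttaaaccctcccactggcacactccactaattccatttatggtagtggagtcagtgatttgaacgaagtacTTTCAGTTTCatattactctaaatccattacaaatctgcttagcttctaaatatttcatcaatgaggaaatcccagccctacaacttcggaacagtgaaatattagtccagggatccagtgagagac
SAMD9: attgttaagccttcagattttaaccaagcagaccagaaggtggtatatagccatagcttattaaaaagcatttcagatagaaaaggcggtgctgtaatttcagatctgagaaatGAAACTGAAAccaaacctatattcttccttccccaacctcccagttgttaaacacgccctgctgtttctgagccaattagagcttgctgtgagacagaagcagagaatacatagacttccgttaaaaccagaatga
IFI6: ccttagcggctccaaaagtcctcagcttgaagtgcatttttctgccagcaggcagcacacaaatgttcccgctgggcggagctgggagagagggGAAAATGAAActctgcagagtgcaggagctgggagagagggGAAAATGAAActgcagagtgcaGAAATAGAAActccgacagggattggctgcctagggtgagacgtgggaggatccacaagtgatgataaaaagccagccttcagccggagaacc
ISG20: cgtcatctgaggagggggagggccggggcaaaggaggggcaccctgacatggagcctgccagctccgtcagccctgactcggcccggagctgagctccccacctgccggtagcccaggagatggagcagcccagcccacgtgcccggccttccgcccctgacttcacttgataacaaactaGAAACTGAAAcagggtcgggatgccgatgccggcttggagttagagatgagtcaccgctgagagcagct
ISG15: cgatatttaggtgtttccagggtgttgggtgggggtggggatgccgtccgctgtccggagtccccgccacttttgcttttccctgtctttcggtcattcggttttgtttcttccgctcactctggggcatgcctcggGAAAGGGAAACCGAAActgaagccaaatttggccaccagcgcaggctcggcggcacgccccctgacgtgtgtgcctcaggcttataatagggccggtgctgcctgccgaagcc
The core was present in these 4 members that rose and in both that fell, while the windows of the other 3 that rose in ARCaPM-DR, PARP9, OAS1 and IRF9, held none. In IFI44L it lies within a stretch that is repeated, in GBP1 it is on the other strand, and in ISG15 a pair of matches overlap. The AGATAA motif was found in none of these 6 windows. Other spellings of a GATA site were not counted, and some are in the bases printed. They are TGATAA in IFI6 and ISG20, TGATAG in IFI44L and AGATAG in SAMD9. Among other members called in a knockdown comparison, the window of OAS1 held 2 matches to AGATAA, and those of TRIM21 and IFIT5 held 1 each. IFIT5 was called with shGATA2a alone in DU145-DR.

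The controls were compared first, since the level a gene starts from sets how a change can be read. ARCaPM-DR controls carried the most of these transcripts. Of 41 members tested across all libraries, 30 were higher in ARCaPM-DR than in DU145-DR and 2 were lower, while 59.9% of all genes were called in that comparison, 28.8% higher and 31.1% lower. The median log2 difference was 1.86 over the members and -0.05 over all genes. Against 22Rv1-DR, 27 members were higher and 8 lower in ARCaPM-DR (31.9% and 38.3% of all genes, 70.3% in all), with medians of 1.58 and -0.11. Between 22Rv1-DR and DU145-DR the members were split, with 16 higher and 12 lower in 22Rv1-DR (36.7% and 33.7% of all genes, 70.5% in all). With quantile normalisation this split turned to 12 higher and 15 lower. Members at 0 in every control of a line were also set to the limit of 3 reads per library. In the comparisons with ARCaPM-DR this changed only GBP2 and, against DU145-DR, XAF1. Each stayed on its own side of the median, so both medians could not move and stayed at these values.

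Among the RNA sensors and effectors, OAS2, an oligoadenylate synthetase that senses double-stranded RNA, had 994 to 1367 normalised reads in ARCaPM-DR controls, 1.43 to 5.19 in DU145-DR and 2.98 to 3.44 in 22Rv1-DR. OAS1, its paralog, had 335 to 585, 4.57 to 6.42 and 0 to 2.98 in the same order. Both were thus near the detection limit in 2 of the lines.

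The membrane factors showed the same order. BST2, which tethers budding virions, had 970 to 1228 normalised reads in ARCaPM-DR controls, 0.86 to 9.13 in DU145-DR and 3.44 to 8.93 in 22Rv1-DR. IFITM1, which restricts virus entry, had 934 to 1033, 0.71 to 4.57 and 3.26 to 51.6. Whether it shares reads with its related neighbours IFITM2 and IFITM3 was not tested, and its level is uncertain to that extent. The ranges of BST2 and IFITM1 did not overlap between ARCaPM-DR and the other lines.

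Other members broke this order. GBP2, a large GTPase, was at 0 in all 3 ARCaPM-DR controls, which allows up to 3 reads per library, and had 77.0 to 151 normalised reads in DU145-DR, so it was at least 36.5-fold lower in ARCaPM-DR. HERC6 and the immunoproteasome subunit PSMB8 were low in 22Rv1-DR only, at 0.82 to 4.30 and 3.44 to 8.15 normalised reads, against 163 to 195 and 138 to 226 in DU145-DR. IFI44L was the reverse case, with 51.3 to 95.5 normalised reads in 22Rv1-DR controls and at most 1.73 in DU145-DR and 5.76 in ARCaPM-DR. The genes named here for their control levels were chosen after their values were seen.

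**Figure D1:**
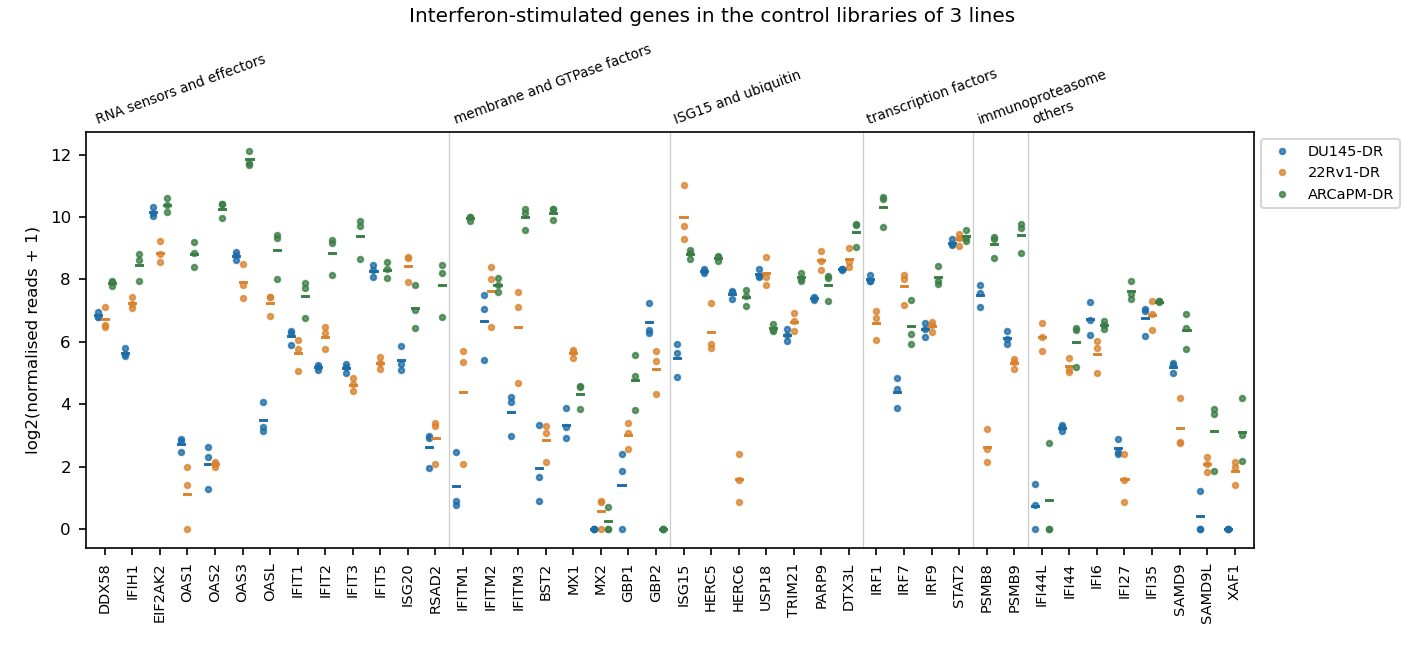
Level of each interferon-stimulated gene in the control libraries, as log2(normalised reads + 1), with 1 point per library, a bar at the mean and genes ordered by role. Lines are to be compared within a gene, and the ARCaPM-DR points lie above those of DU145-DR for most genes, with GBP2 as the opposite case at 0.

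In ARCaPM-DR, GATA2 knockdown moved 9 of the 40 members tested, 7 up and 2 down. This is 22.5% of those tested, where 18.5% of all genes were called, 9.86% up and 8.62% down. IFI44L, GBP1, SAMD9 and IFI6 had the largest rises, PARP9, OAS1 and IRF9 rose less, and ISG20 and ISG15 fell. The median log2 fold change of the 40 was 0.18, against -0.00 over all genes, and the range ran from -1.11 to 5.17. All 6 knockdown libraries lay above every control for 5 members and below for 1, against 11% and 10% of all genes. IFI44L passed the filter on low values only through its knockdown libraries, so its difference is partly built into being tested. In a fold change here, knockdown is the mean of both hairpin groups on the log2(normalised reads + 1) scale, which understates the change of low genes.

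IFI44L, an interferon-induced protein of the same family as its neighbour IFI44, was at 0, 0 and 5.76 normalised reads in the 3 controls. It had 116, 30.9 and 167 with shGATA2a and 60.1, 27.6 and 90.1 with shGATA2b. All 6 knockdown libraries therefore lay above every control, and the controls rested on 9 reads in all, every one in replicate 3. The log2 fold change was 5.17 (SE 0.73, adjusted p = 0.00126, limma), and it was 3.50 with a pseudocount of 5 and 7.43 with a pseudocount of 0.1, so its size is set by how values near 0 are treated.

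GBP1, a GTPase that coats intracellular pathogens, had 29.1, 13.1 and 46.7 normalised reads in the controls. With shGATA2a it had 161, 50.8 and 117, and with shGATA2b 384, 153 and 367. Each replicate 2 library was the lowest of its group, and the lowest knockdown library was just above the highest control. Its log2 fold change was 2.61 (SE 0.47, adjusted p = 0.00469, limma).

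SAMD9, a cytosolic factor that restricts poxviruses, had 119, 53.4 and 85.1 normalised reads in the controls, 450, 134 and 435 with shGATA2a and 261, 164 and 292 with shGATA2b. The groups did not overlap. It rose by 1.68 on the log2 scale (SE 0.40, adjusted p = 0.0182, limma), and the call was lost without control replicate 2 or control replicate 3 (adjusted p = 0.0615 to 0.0802).

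IFI6, a membrane protein that limits flavivirus replication, had 91.2, 84.1 and 100 normalised reads in the controls. It reached 488, 249 and 358 with shGATA2a and 167, 145 and 153 with shGATA2b. The controls were tight, both hairpin groups lay wholly above them, and the shGATA2a group lay wholly above the shGATA2b group. Its log2 fold change was 1.34 (SE 0.20, adjusted p = 0.00158, limma).

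ISG20, a nuclease that degrades RNA, moved the other way. It had 128, 86.7 and 224 normalised reads in the controls, 74.2, 66.7 and 81.6 with shGATA2a and 64.7, 56.4 and 74.6 with shGATA2b. Every knockdown library was below every control, although control replicate 3 was far above the other controls. It fell by 0.96 on the log2 scale (SE 0.27, adjusted p = 0.0327, limma), and the call was lost without control replicate 1 or 3, shGATA2a replicate 1, or shGATA2b replicate 1 or 2 (adjusted p = 0.0550 to 0.124). The fall was by 0.60 at the least, without control replicate 3.

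ISG15, the ubiquitin-like protein that is attached to other proteins in this response, had 493, 400 and 458 normalised reads in the controls, 420, 352 and 354 with shGATA2a and 321, 244 and 266 with shGATA2b. The shGATA2a group overlapped the controls and the shGATA2b group did not. The log2 fold change was -0.48 (SE 0.13, adjusted p = 0.0326, limma), and the call was lost without control replicate 1 or 3 or shGATA2b replicate 2 or 3 (adjusted p = 0.0582 to 0.139).

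Of the other 3 members called, PARP9, which pairs with DTX3L as an ADP-ribosylating ubiquitin ligase, had a log2 fold change of 1.02, OAS1 of 0.99, and IRF9, the DNA-binding part of the ISRE-binding complex, of 0.61. Their adjusted p-values were 0.0471, 0.0367 and 0.0306 (limma). The calls of PARP9 and OAS1 were lost without any of 7 of the 9 libraries, all but shGATA2a replicate 2 and shGATA2b replicate 2 (adjusted p = 0.0504 to 0.182). The call of IRF9 was lost without control replicate 1 or 3, shGATA2a replicate 1 or shGATA2b replicate 1 (0.0689 to 0.140). The calls of IFI44L, GBP1 and IFI6 held whichever library was left out. The count itself fell to 4 without control replicate 1, to 3 without control replicate 3, and to 5 without shGATA2a replicate 1 or shGATA2b replicate 1. Without the 3 replicate 2 libraries, an alternative chosen after seeing the data, 16 members were called, 12 up and 4 down, among them all 9. The share of all genes called in that run is not given, so its count cannot be read as a result about the members. With the replicate number added to the fit as a block, 23 members were called, 15 up and 8 down, where 45% of all genes were called.

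By role, the 13 RNA sensors and effectors gave 1 rise (OAS1) and 1 fall (ISG20), with a median log2 fold change of -0.16 and a lowest value of -1.11 for OASL, an OAS-like protein that did not pass the test (adjusted p = 0.105). Of 6 membrane and GTPase factors tested, GBP1 alone was called, and of 7 ISG15 and ubiquitin enzymes PARP9 rose and ISG15 fell. Of 4 transcription factors IRF9 alone was called, and neither immunoproteasome subunit was. Of the 8 other members IFI44L, IFI6 and SAMD9 rose, with a median of 1.23. The SAMD9 neighbour SAMD9L had a log2 fold change of 1.99 without passing (adjusted p = 0.0600), and the IFI44L neighbour IFI44 had 1.13. All of OASL, SAMD9L and IFI44 passed with the replicate number as a block. Their adjusted p-values were then 1.29e-07, 1.19e-05 and 3.14e-05 (limma), where 45% of all genes were called.

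Markers of another cell type moved in this line. The sum of 5 fibroblast genes was 2366 to 4772 normalised reads in ARCaPM-DR controls, 7666 to 14927 with shGATA2a and 5683 to 11431 with shGATA2b. It was carried by COL3A1, at 1013 to 2823 in the controls and 4202 to 12340 with either hairpin, and by COL1A1, at 1352 to 1948 and 1479 to 3096. The fibroblast receptor gene PDGFRB was at 0 in all 9 libraries, and DCN and LUM did not pass 4.98 and 2.07 normalised reads. In bulk RNA, a change in the share of cells that express a gene and a change in RNA per cell cannot be told apart. The part of the fibroblast genes in the results of this line was not tested, and in DU145-DR their sum was 170 to 219 in the controls and 97.7 to 179 with a hairpin.

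**Figure D2:**
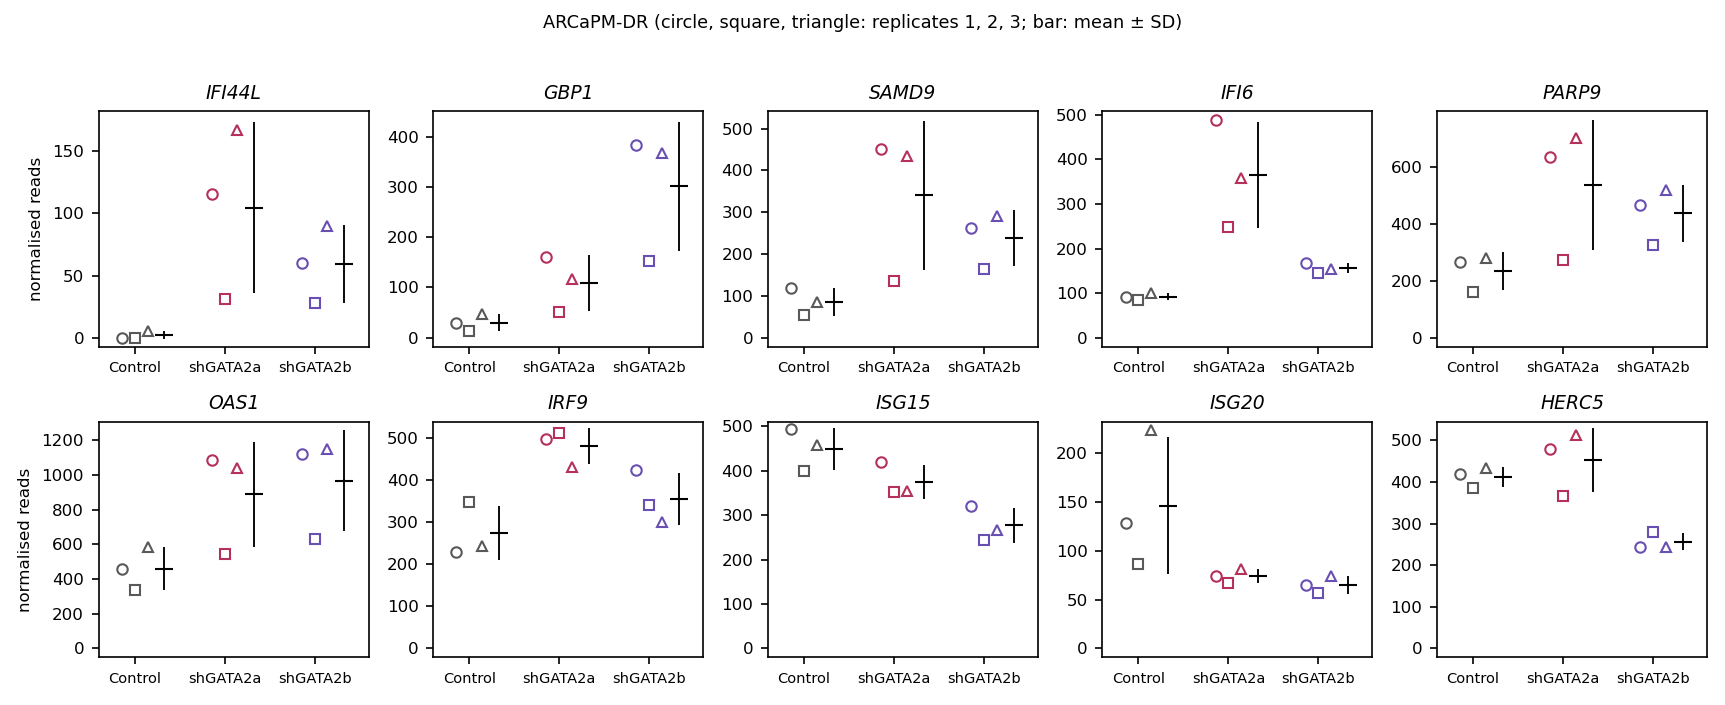
Normalised reads of 10 interferon-stimulated genes in the ARCaPM-DR libraries, by hairpin group, with 1 symbol per library and the mean ± SD at the side. IFI44L, GBP1, SAMD9 and IFI6 lie higher in both hairpin groups than in the controls, ISG20 lies lower in both, and HERC5 lies lower with shGATA2b alone.

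Taken singly, the hairpins called fewer members in ARCaPM-DR than their mean did. Both contrasts use the same 3 controls. With shGATA2a, IFI44L, IFI6, SAMD9 and IRF9 rose and no member fell, 4 of 40 where 12.8% of all genes were called, 7.2% up and 5.63% down. With shGATA2b, IFI44L and GBP1 rose and ISG20, HERC5 and ISG15 fell, 5 of 40 where 14.5% of all genes were called, 7.28% up and 7.21% down. The log2 fold changes of IFI44L were 5.50 and 4.84 with the 2 hairpins, those of IFI6 1.93 and 0.75, and those of GBP1 1.87 and 3.36. For shGATA2b the split was 5 up and 3 down with edgeR and 6 up and 4 down with DESeq2, against 2 up and 3 down with limma. The counts were 2 to 12 for shGATA2a and 2 to 11 for shGATA2b over the libraries left out, with 2 for shGATA2a without control replicate 1 or shGATA2a replicate 1. For shGATA2b the count was 2 without control replicate 1 or 3 or shGATA2b replicate 3, and 3 without shGATA2b replicate 1. Both were highest without shGATA2a replicate 2. IFI44L and IFI6 with shGATA2a, and IFI44L and GBP1 with shGATA2b, passed whichever library was left out. Without the 3 replicate 2 libraries the counts were 16 and 17, for which the shares of all genes called are not given. With the replicate number as a block they were 17 and 21, where 39.9% and 40.4% of all genes were called.

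The hairpins were then set against each other, which asks whether both act alike on a gene. In ARCaPM-DR, 1 of 40 members differed, HERC5, the ligase that attaches ISG15 to its targets, where 0.803% of all genes were called, 0.206% higher and 0.596% lower with shGATA2b. HERC5 had 419, 386 and 433 normalised reads in the controls, 479, 365 and 513 with shGATA2a and 244, 280 and 244 with shGATA2b. The shGATA2a libraries spanned the controls, and the shGATA2b libraries lay below all of them. The log2 difference, shGATA2b minus shGATA2a, was -0.81 (SE 0.15, adjusted p = 0.0475, limma), and it did not pass when any 1 library other than shGATA2a replicate 2 was left out (adjusted p = 0.0707 to 0.263). Without the 3 replicate 2 libraries 6 members were called, 1 up and 5 down, HERC5 among them, and the share of all genes called is not given. With the replicate number as a block 12 were called, 2 up and 10 down, HERC5 among them, where 12.5% of all genes were called.

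IFI6 came close, with a log2 difference of -1.17 (SE 0.23, adjusted p = 0.0514), and RSAD2, the enzyme viperin, had -1.54 with a far wider error (SE 0.64, adjusted p = 0.392). GBP1 was higher with shGATA2b, at 1.49 (SE 0.55, adjusted p = 0.310). These 3 were chosen after their values were seen, and all 3 passed with the replicate number as a block. Without the block, 8 of 40 members were at an unadjusted limma p under 0.05. The median difference over the 40 was -0.17, against -0.00 over all genes. GATA2 was at 26.4 to 46.6 normalised reads with shGATA2a and 17.3 to 21.7 with shGATA2b, a log2 difference of -0.75 that did not pass (adjusted p = 0.257, limma).

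**Figure D3:**
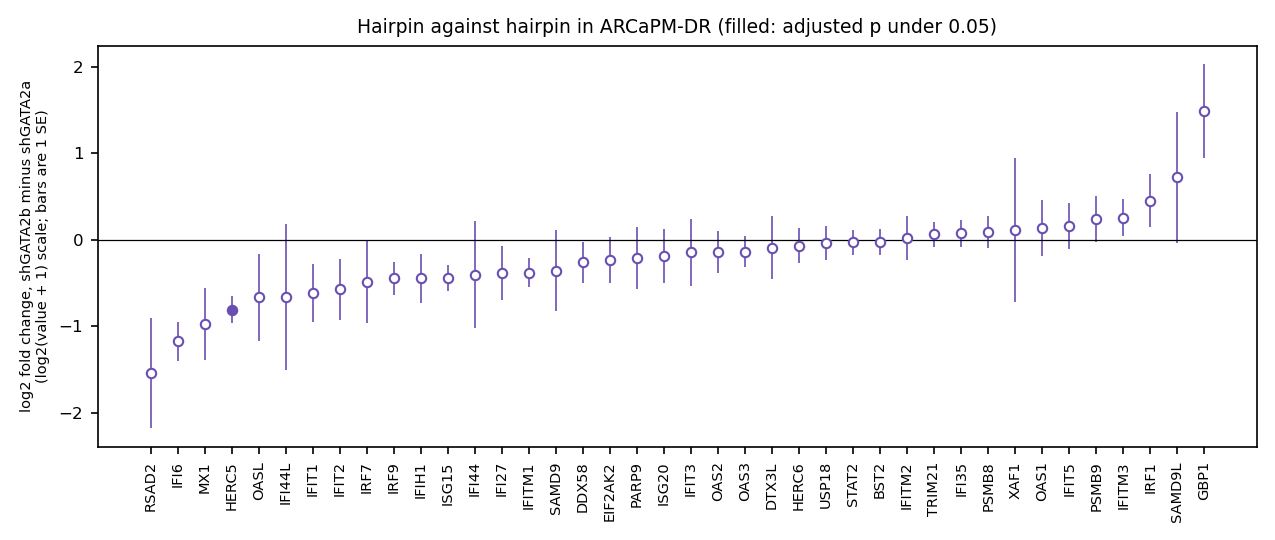
Difference between the hairpins in ARCaPM-DR for the 40 interferon-stimulated genes tested, as log2 fold change shGATA2b minus shGATA2a with bars of 1 SE, ordered by size. HERC5, at -0.81, is the filled point that passed the test, while genes with larger differences such as RSAD2 and GBP1 have wider bars.

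In DU145-DR, knockdown moved 5 of 31 members tested, with 3 up and 2 down. This is 16.1% of those tested, against 16.7% of all genes, 8.72% up and 7.98% down, so the members' share was near the background. MX1, IFIT2 and TRIM21 rose, and GBP2 and IFI35 fell. The median log2 fold change was 0.19 over the members and -0.00 over all genes, and 9 members were at an unadjusted p under 0.05. All 6 knockdown libraries lay above every control for 6 members and below for 1, against 10% and 8.74% of all genes. IFI44 passed the filter on low values only through its knockdown libraries.

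MX1, a GTPase that traps viral nucleocapsids, was low in this line, at 6.52, 13.5 and 8.65 normalised reads in the controls, 25.0, 20.2 and 16.2 with shGATA2a and 14.0, 19.3 and 25.0 with shGATA2b. The lowest knockdown library was just above the highest control. Its log2 fold change was 1.01 (SE 0.29, adjusted p = 0.0305, limma), and the call was lost without control replicate 1 or 3, shGATA2a replicate 1 or 2, or shGATA2b replicate 3 (adjusted p = 0.0517 to 0.151).

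IFIT2, which binds RNA and holds back translation, had 35.9, 33.5 and 37.2 normalised reads in the controls, 71.5, 60.5 and 47.0 with shGATA2a and 58.6, 47.1 and 53.5 with shGATA2b. The 3 controls were close together and below all 6 knockdown libraries. It rose by 0.64 (SE 0.17, adjusted p = 0.0248, limma), a call lost without control replicate 1 or 2 or shGATA2a replicate 1 (0.0537 to 0.108).

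TRIM21, a ubiquitin ligase that binds antibody in the cytosol, had 83.5, 72.7 and 64.0 normalised reads in the controls, 131, 128 and 94.0 with shGATA2a and 129, 89.3 and 94.9 with shGATA2b. All knockdown libraries lay above the controls. The log2 fold change was 0.58 (SE 0.17, adjusted p = 0.0325, limma), and the call was lost without any control, shGATA2a replicate 1 or 2, or shGATA2b replicate 1 (0.0564 to 0.108).

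GBP2 had 151, 82.7 and 77.0 normalised reads in the controls, 45.8, 21.6 and 37.0 with shGATA2a and 75.3, 42.2 and 26.7 with shGATA2b. Every knockdown library was below every control, the nearest being shGATA2b replicate 1. It fell by 1.34 on the log2 scale (SE 0.32, adjusted p = 0.0149, limma), a call lost without control replicate 1 alone (adjusted p = 0.0962). Its paralog GBP1, which rose in ARCaPM-DR, had at most 4.28 normalised reads in DU145-DR and was not tested there.

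IFI35, a cytosolic protein that interacts with the STAT-binding protein NMI, had 132, 125 and 72.7 normalised reads in the controls, 72.2, 77.7 and 57.8 with shGATA2a and 63.2, 70.0 and 45.7 with shGATA2b. Control replicate 3 overlapped the shGATA2a group. The log2 fold change was -0.74 (SE 0.21, adjusted p = 0.0319, limma), and the call was lost without control replicate 1 or 2, shGATA2a replicate 3 or shGATA2b replicate 3 (0.0543 to 0.163).

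The count in DU145-DR moved with single libraries. No member was called without control replicate 1, 2 without control replicate 2 or shGATA2a replicate 1, and 3 without control replicate 3 or shGATA2b replicate 3. In 1 fit of all 27 libraries, which share 1 estimate of the spread, 1 member was called. Libraries with the same replicate number deviated together in this line, and with the replicate number as a block 11 members were called, 9 up and 2 down, where 38.8% of all genes were called. These were the 5 above with DDX58, which encodes the RNA sensor RIG-I, IFIT5, IFITM2, IFITM3, OAS3 and SAMD9. The SEs, p-values and lost calls named above for the 5 are from the fit without the block. With the block their adjusted p-values ran from 2.95e-06 (GBP2) to 0.00514 (MX1) by limma.

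**Figure D4:**
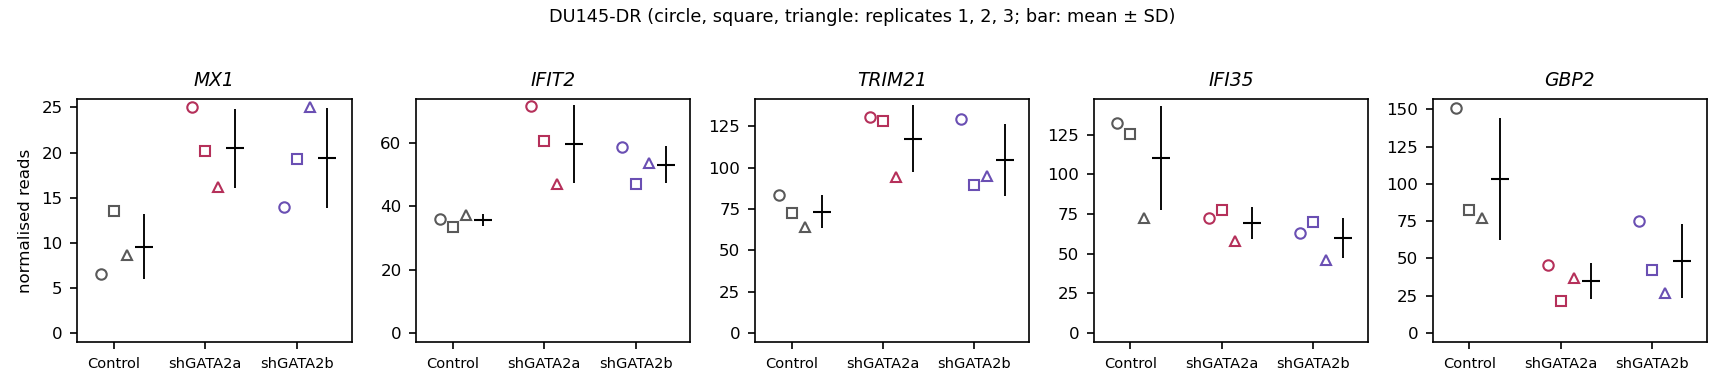
Normalised reads of the 5 interferon-stimulated genes called in DU145-DR, by hairpin group, with 1 symbol per library and the mean ± SD at the side. MX1, IFIT2 and TRIM21 lie higher in both hairpin groups, and GBP2 lies lower in both, while IFI35 overlaps through control replicate 3.

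With shGATA2a alone in DU145-DR, IFIT2, IFIT5, MX1 and TRIM21 rose and GBP2 fell, 5 of 31 where 16.1% of all genes were called, 8.28% up and 7.78% down. IFIT5, of the same family as IFIT2, had 350, 271 and 317 normalised reads in the controls and 401, 412 and 436 with this hairpin, which did not overlap, and a log2 fold change of 0.42 (SE 0.13, adjusted p = 0.0448, limma), which was lost without 7 of the 9 libraries. With shGATA2b no member was called by limma, 1 by edgeR and 2 by DESeq2, where limma called 5.81% of all genes, 3.29% up and 2.52% down, and 5 members were at an unadjusted p under 0.05. With the block, 13 and 7 members were called with the 2 hairpins, where 38.1% and 26.3% of all genes were. The shGATA2a count was 0 without control replicate 1 1 without shGATA2a replicate 1 or 2, 2 without control replicate 2 and 3 without control replicate 3, and the shGATA2b count was 1 without control replicate 3. Hairpin against hairpin, no member and no other gene was called in DU145-DR (0% of all genes), no member was called by edgeR, DESeq2 or with the block, and 1 was at an unadjusted p under 0.05. The log2 differences ran from -1.05 to 0.40.

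In 22Rv1-DR no member of 31 tested was called by limma, with or without the block, nor by edgeR or DESeq2, with 3 at an unadjusted limma p under 0.05. In this line 0.4% of all genes were called without the block, 0.124% up and 0.276% down, and 1.21% with it. The median log2 fold change of the members was -0.04, and the values ran from -0.71 for ISG15 to 0.85 for IFITM1. Without control replicate 3 the log2 fold change of ISG15 went from -0.71 to -0.20, that of IFITM1 from 0.85 to -0.29, that of IFITM2 from 0.46 to -0.12 and that of IFITM3 from 0.65 to -0.25. The sum of the 5 fibroblast genes in these controls ran from 1380 to 4298, and the highest, again in control replicate 3, was carried by COL1A1 at 3965. The part of this in the values of the members was not tested.

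USP18, the protease that removes ISG15, was the 1 member whose groups did not overlap in 22Rv1-DR. It had 267, 224 and 418 normalised reads in the controls, 206, 201 and 177 with shGATA2a and 200, 224 and 190 with shGATA2b. The highest knockdown library was just below the lowest control. The log2 fold change was -0.55 (SE 0.20, adjusted p = 0.393, limma), and -0.30 without control replicate 3. Groups that do not overlap, with all 6 knockdown libraries lower, were found for 4.04% of all genes in this line, and with all 6 higher for 2.9% of all genes and no member. Neither hairpin alone called a member against the controls by any of the 3 tools, where limma called 0% and 0.00727% of all genes and 1 and 2 members were at an unadjusted p under 0.05. Hairpin against hairpin, no member was called by any of them (0% of all genes) and none was at an unadjusted p under 0.05, with log2 differences from -0.28 to 0.29.

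**Figure D5:**
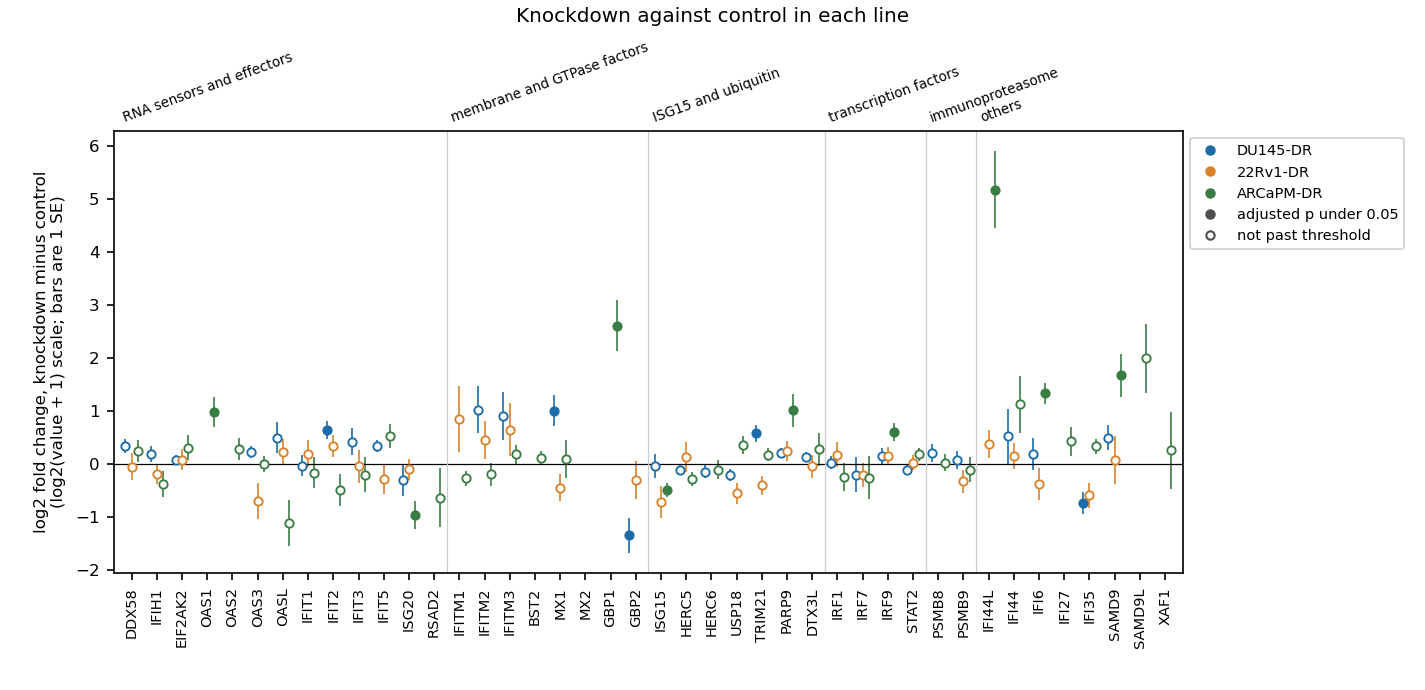
Log2 fold change of knockdown against control for each interferon-stimulated gene in the 3 lines, on the log2(normalised reads + 1) scale with bars of 1 SE, with genes ordered by role and filled points for an adjusted p under 0.05. The filled points are 5 in DU145-DR and 9 in ARCaPM-DR, and no gene is filled in both. The fit shown is without the replicate block, with which 4 genes were called in both lines.

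The calls in the 2 lines with any did not overlap in the fit without the replicate block. Of the 5 members called in DU145-DR, 4 were tested in ARCaPM-DR and none was called, and of the 9 called in ARCaPM-DR, 6 were tested in DU145-DR and none was called. With the block in DU145-DR, SAMD9 was called in both. With the block in both lines, 4 members were called in both, 2 of them in the same direction. Only 30 members were tested in both lines, and the share of all genes called in both is not given here. The absence of overlap therefore does not show that the lines respond through separate members. Whether a member's response differed between lines was tested directly, in a fit of all 27 libraries. Of 41 members, 5 differed, where 7% of all genes did: IFI44L, GBP1, TRIM21, IFI6 and USP18. At an unadjusted p under 0.05 there were 15. The count was 2 without DU145-DR control replicate 2, 9 without ARCaPM-DR shGATA2a replicate 2, and 3 without 22Rv1-DR shGATA2b replicate 1 or 3, ARCaPM-DR control replicate 1 or 3, or ARCaPM-DR replicate 1 of either hairpin.

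IFI44L differed with an adjusted p of 0.000212 (limma). Beside its values in ARCaPM-DR above, it had 51.3 to 95.5 normalised reads in 22Rv1-DR controls and 64.6 to 133 with a hairpin there, and 0 to 2.88 in all DU145-DR libraries. Its log2 fold change in 22Rv1-DR was 0.38 (SE 0.26), and 0.16 without control replicate 3. GBP1 differed with an adjusted p of 0.00576 (limma), and it had 0 to 4.28 normalised reads in DU145-DR and 4.96 to 11.7 in 22Rv1-DR, where it was not tested alone. With a pseudocount of 0.1 this difference no longer passed, and the adjusted p-values of GBP1 over the alternatives ran from 1.24e-04 to 0.172.

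For TRIM21 the log2 fold change was 0.58 in DU145-DR, 0.18 in ARCaPM-DR and -0.40 in 22Rv1-DR (adjusted p for the difference = 0.0236, limma). It was higher in all 6 knockdown libraries than in any control in DU145-DR and overlapped in the other lines, and the difference was lost without DU145-DR control replicate 2 or 3 or 22Rv1-DR control replicate 3 (0.0551 to 0.0675). IFI6 had 0.20, 1.34 and -0.38 in the same order (adjusted p = 0.0355), lost without 11 of the 27 libraries left out in turn, which include each ARCaPM-DR control, and at 0.0578 without the 3 replicate 2 libraries of ARCaPM-DR. USP18 had -0.21, 0.36 and -0.55, none of which passed alone (adjusted p for the difference = 0.0426), and this was lost without 20 of the 27 libraries. Without control replicate 3 of 22Rv1-DR the log2 fold changes there were -0.26 for TRIM21, -0.17 for IFI6 and -0.30 for USP18.

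Around these 42 genes, 77 other genes of the interferon pathway were followed from a separate list. Of 9 ligand genes in the table, IFNA1, IFNA2 and IFNG were at 0 in every library, IFNB1 had 2 reads in all, and no ligand passed 8.09 normalised reads in any library, so none was tested. Of the other pathway genes, 9 of 63 tested rose and 4 fell in ARCaPM-DR, 6 of 52 rose and 2 fell in DU145-DR, and none of 51 was called by limma in 22Rv1-DR, where 6 were at an unadjusted p under 0.05. The share called was 20.6% in ARCaPM-DR and 15.4% in DU145-DR, near the 18.5% and 16.7% of all genes. Their median log2 fold changes in this order were -0.01, 0.03 and 0.01.

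Among receptors and kinases in ARCaPM-DR, IFNAR1, the signalling chain of the type I interferon receptor, had 1239 to 1319 normalised reads in the controls and 669 to 999 with a hairpin, and fell by 0.70 (SE 0.11, adjusted p = 0.00210, limma). TYK2, the kinase bound to it, fell by 0.91 (SE 0.16, adjusted p = 0.00423). IL10RB, a chain shared by the interferon lambda and IL10 receptors, rose by 0.79 (SE 0.14, adjusted p = 0.00440). IFNAR2, the high-affinity chain of the type I receptor, was lower with shGATA2b than with shGATA2a, by a log2 difference of -0.66 (SE 0.12, adjusted p = 0.0420), which did not pass without any 1 of 8 of the 9 libraries (0.0542 to 0.224).

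Among sensors and effectors in ARCaPM-DR, ZCCHC3, a cofactor of nucleic acid sensors, rose by 1.20 (SE 0.12, adjusted p = 2.51e-04, limma). TAP1, the peptide transporter of antigen presentation, had 1205 to 1270 in the controls and 680 to 889 with a hairpin, and fell by 0.65 (SE 0.12, adjusted p = 0.00436). These calls of ZCCHC3, TAP1, IFNAR1, TYK2 and IL10RB held whichever library was left out.

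In DU145-DR, ZCCHC3 rose by 1.01 (SE 0.12, adjusted p = 3.45e-04, limma) and the helicase DDX60L by 0.88 (SE 0.14, adjusted p = 0.00207). PML, the organiser of nuclear bodies, fell by 0.66 (SE 0.12, adjusted p = 0.00388) and TYK2 by 0.31 (SE 0.09, adjusted p = 0.0406). The calls of ZCCHC3, DDX60L and PML held whichever library was left out, and that of TYK2 was lost in 8 of 9 cases (0.0511 to 0.165).

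ZCCHC3, IL10RB and TYK2 were called in both lines in the same direction, and the call of IL10RB in DU145-DR was lost without 5 of the 9 libraries. TAP1 was called in opposite directions, with a log2 fold change of 0.37 in DU145-DR (adjusted p = 0.0126, limma), lost without control replicate 1 (adjusted p = 0.0863), and -0.65 in ARCaPM-DR. The difference between lines passed for 4 of 63 genes tested, against 7% of all genes, among them TAP1 (adjusted p = 0.00136), IFNAR1 (0.00352) and TLR3 (0.0171), and that of TLR3 was lost without ARCaPM-DR control replicate 1 or 2 (0.0582 to 0.0686). ZCCHC3 in 22Rv1-DR had a log2 fold change of 0.76 that did not pass (adjusted p = 0.124), and 2 of its 9 values there were not whole numbers of reads.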

How the data were processed

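RNA-seq of total RNA was made from 27 libraries with the RNeasy Mini kit and a standard Illumina protocol, per the labels. Per the submitters' processing notes the tools were TopHat2 2.0.9 and Cufflinks 1.3.0 on hg19/GRCh37. No label or file header used here names the counting program, its scaling or its use of strand. The authors' deposited values are a normalised signal: 99.954% of 433407 values above 0 were whole reads within 0.005 once 1 factor per library was recovered. The 199 other values are in 58 genes, none of them a member, but GATA2 and ZCCHC3 are among them. Depth was 3.44 to 19.4 M reads. The limit of 3 reads for a value of 0 covers counting error only, while each SE comes from the spread between libraries.

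Members and lists were chosen with earlier results of these data known. Log2(value + 1) was fitted with limma 3.58.1 (R 4.3.3, trend) in each line's 9 libraries, on genes at 10 or more in at least 3 libraries, with Benjamini-Hochberg adjustment over all genes tested and a threshold of 0.05. A fit of 27 libraries gave differences between lines and controls. Values were given in full for up to 4 members called in each direction by fold, and up to 3 pathway genes by p. edgeR 4.0.16 and DESeq2 1.42.0 on the recovered reads, other pseudocounts, filters and scalings, and each library left out, were alternatives. The fits were also run on simulated data with known changes. For the fits within a line the simulated libraries were independent and of a fixed spread, unlike the libraries here. Those runs check the code and not the error rate in these data.

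Replicate pairs differed beyond counting noise (chi-square per degree of freedom 6.10 to 98.0). Pairing by replicate number was checked from the data, as the labels give only the number. Deviations of same-numbered libraries correlated at 0.275 or more in DU145-DR and 0.211 or more in 22Rv1-DR, so the numbers were taken to pair there. The main fits nevertheless hold no block in any line, so their SEs and p-values do not use this pairing. The block was run as an alternative. In ARCaPM-DR they correlated at 0.0559 or more, and the numbers were not taken to pair. That choice rested on the lowest pair. The median correlation was highest in ARCaPM-DR, at 0.583, against 0.393 in DU145-DR and 0.409 in 22Rv1-DR. Some pathway genes that the rule would name are counted but not reported here by name.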

Additional observations from a re-analysis of the deposited data

Results flagged for a closer look

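The response to GATA2 knockdown differed between the 3 lines for 5 of the 41 interferon-stimulated genes tested, by limma's F test of the difference over 27 libraries. It differed for 7% of all genes by the same test. The adjusted p was 0.000212 for IFI44L, 0.00576 for GBP1, 0.0236 for TRIM21, 0.0355 for IFI6 and 0.0426 for USP18. IFI44L and GBP1 had the largest rises in ARCaPM-DR, from control levels of at most 5.76 and 46.7 normalised reads. In DU145-DR they had at most 2.88 and 4.28. The difference of GBP1 did not pass with a pseudocount of 0.1 (adjusted p = 0.172, limma). With each of the 27 libraries left out in turn, that of IFI6 was lost in 11 cases, that of USP18 in 20 and that of TRIM21 in 3.

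Among the other pathway genes the same test passed for 4 of 63, against 7% of all genes. These include TAP1 (adjusted p = 0.00136), IFNAR1 (0.00352) and TLR3 (0.0171). In DU145-DR, then 22Rv1-DR, then ARCaPM-DR, the log2 fold changes were 0.37, -0.07 and -0.65 for TAP1. They were 0.14, -0.26 and -0.70 for IFNAR1, and -0.12, 0.08 and 2.06 for TLR3, a sensor of double-stranded RNA.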

How the results depend on the processing

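No gene named as called changed direction under any alternative run. Members that did not pass did: without control replicate 3 of 22Rv1-DR, IFITM1 went from 0.85 to -0.29, IFITM2 from 0.46 to -0.12 and IFITM3 from 0.65 to -0.25. Quantile normalisation turned the controls of 22Rv1-DR against DU145-DR from 16 higher and 12 lower to 12 and 15, with 24 of the 28 calls kept. No scaling moved the median of all genes by over 0.1. Counts of members called moved by over 1.5 times as follows. With the replicate number as a block they went from 5 to 11 for knockdown in DU145-DR, from 5 to 13 and from 0 to 7 for shGATA2a and shGATA2b there, from 9 to 23, 4 to 17 and 5 to 21 for the same comparisons in ARCaPM-DR, from 1 to 12 for hairpin against hairpin in ARCaPM-DR, and from 5 to 18 between lines. The 12 include IFI6 (adjusted p = 0.000133), RSAD2 (7.28e-06) and GBP1 (8.64e-05) by limma. The shares of all genes called with the block rose as well. They were 38.8%, 38.1% and 26.3% for these comparisons in DU145-DR and 45%, 39.9% and 40.4% in ARCaPM-DR. For hairpin against hairpin in ARCaPM-DR the share was 12.5%, and between lines 26.2%. With the block in both lines, 4 members were called in DU145-DR and ARCaPM-DR, IFIT5 and SAMD9 in the same direction and IFI35 and IFIT2 in opposite directions. In 22Rv1-DR no member was called with the block either, while the share of all genes called for knockdown went from 0.4% to 1.21%. There 9 of 9 libraries correlated best with their own number, as in DU145-DR and against 7 of 9 in ARCaPM-DR. The block was not run for the controls between lines.

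In 1 fit of 27 libraries the counts were 1 for knockdown and 1 for shGATA2a in DU145-DR, and 8 for shGATA2b in ARCaPM-DR. Without a filter shGATA2a in DU145-DR gave 1. DESeq2 gave 2 for shGATA2b in DU145-DR, 9 and 10 for shGATA2a and shGATA2b in ARCaPM-DR and 9 between lines, and edgeR gave 1, 8 for shGATA2b and 8 between lines. Hairpin against hairpin in ARCaPM-DR gave 0 in the fit of 27 libraries, without filter or trend, and with quantile or median of ratios scaling, and 2 with edgeR, DESeq2 or a filter of 50. Without the 3 replicate 2 libraries of ARCaPM-DR, chosen after seeing the data, the counts were 16, 16, 17 and 6 in that line and 9 between lines. Shares of all genes called are not given for the counts in this paragraph, here or where they stand above, nor for single libraries left out. None of these counts can be read as a result about the members. The cause of these moves was not tested.

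Over single libraries left out, the counts ran from 0 to 6 for knockdown and for shGATA2a in DU145-DR, 0 to 1 for shGATA2b, 3 to 12, 2 to 12 and 2 to 11 in ARCaPM-DR, 0 to 2 for hairpin against hairpin there, and 2 to 9 between lines. The counts for the controls stayed within 1.5 times throughout. Depth limits the low members: of 42, 2 were not tested in ARCaPM-DR and 11 in each of the other lines.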

Other observations

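Several of the genes are neighbours on their chromosome, and 22 of the 42 have another member as the next gene along it, among genes in the deposited table. After knockdown in ARCaPM-DR some neighbours had unlike values and others did not. OAS1 had a log2 fold change of 0.99, and OAS2 of the same cluster had 0.28. PARP9 had 1.02 and DTX3L, the partner of its product, had 0.28. IFI44L had 5.17 and IFI44 had 1.13. SAMD9 and SAMD9L were close, at 1.68 and 1.99. Differences between neighbours were not tested, and these pairs were chosen after their values were seen.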
